A study of Mus musculus with 2 samples.

Results

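The genes of 10 E-box transcription factors, namely Myc, Mycl, Max, Mlx, Mxd1, Mxd4, Mxi1, Mnt, Usf1 and Usf2, were examined for CHOP binding in stressed mouse liver. They were taken by name from the protein-coding genes of GENCODE M21 on mm10, where all 10 were found among 21866 genes with a protein-coding start site. CHOP, encoded by Ddit3, was immunoprecipitated from the liver of wild-type mice that had received 1 mg/kg tunicamycin, a blocker of N-glycosylation that stresses the endoplasmic reticulum, intraperitoneally 8 h earlier. Livers of 3 mice were pooled into 1 immunoprecipitated library, and 1 input library from tunicamycin-treated wild-type liver served the authors' peak calling. The labels give neither age nor sex. No untreated or CHOP-deficient liver is analysed here, so the peaks describe a single condition, and neither RNA nor protein of these genes was measured.

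The proteins encoded by these genes read the E-box, a short palindromic DNA element, through a basic helix-loop-helix leucine zipper. MYC and MYCL pair with MAX to drive genes of growth and ribosome production. The MAD family proteins (from Mxd1 and Mxd4), MXI1 and MNT compete for MAX and repress the same kind of genes, while MLX pairs with some of these repressors or with the glucose sensors MondoA and ChREBP. USF1 and USF2 bind E-boxes as a separate pair and take part in the hepatic response to glucose and insulin. CHOP is a C/EBP-family factor that as a heterodimer reads C/EBP-like elements, often fused to part of an ATF site.

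CHOP peaks lay at the promoters of 8 of the 10 genes (80.0%), where a promoter peak is one whose summit falls no more than 1 kb from a start site, against 27.9% of all protein-coding genes. The list was put together with results of these data known, so this count is a description and was not tested. With only peaks of −log10 q of at least 5 the count was 4 of 10, against 21.0% of all genes, and with only folds of at least 5 it was 5 of 10, against 23.5%. The highest folds were those of Mxi1 at 22.9-fold, Mxd4 at 12.2-fold and Mnt at 9.89-fold, 3 of the 4 genes that encode repressor partners of MAX. Fold is the authors' ratio of reads at the summit over the local background, after 1 is added to each. Usf2 stood at 8.67-fold and Usf1, Mlx and Mycl between 4.44-fold and 5.03-fold, and Mxd1, the remaining repressor partner, was lowest at 3.77-fold. This order depends on the distance limit: within 500 bp the fold of Mxi1 was 5.02, below Usf2, and within 3 kb that of Mycl was 20.9, above Mxd4 and Mnt. Max, the shared partner of the network, had no peak (nor had 61.8% of all genes), and Myc had distal peaks only. Base composition moves with the rate of promoter peaks, and its part in the count was not tested. The ratio of observed to expected CpG around the start sites (500 bp to either side) ran from 0.502 (Mxd1) to 0.962 (Mxi1) in the 10 genes, with a median of 0.756, against a median of 0.504 over all genes. Of the 10977 genes whose ratio was at least that of Mxd1, 47.6% had a promoter peak. The ratio of Mxd1 lies close to the median of all genes, and the next lowest of the 10 was 0.651 (Mnt). This set is therefore not matched in composition to the 10 genes.

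The sequences below show the DNA under the summits on which the description turns: the 4 promoters of highest fold, distal summits of Mxi1, Mycl and Myc, and a summit inside the Usf2 gene that belongs by distance to its neighbour. Each is the mm10 (GRCm38.p6) sequence within 50 bp of the summit, read along the strand of the gene, except that of Mnt, which ends 1 base before the start site. Capitals mark TGCAAT or its inner GCAAT on either strand (the core bound by C/EBP and CHOP dimers), TGATGNAA on either strand (that core fused to part of an ATF site), and CACATG (a variant E-box).
Mxi1 promoter window: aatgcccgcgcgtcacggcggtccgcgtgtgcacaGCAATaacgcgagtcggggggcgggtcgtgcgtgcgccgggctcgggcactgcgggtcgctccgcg
Mxd4 promoter window: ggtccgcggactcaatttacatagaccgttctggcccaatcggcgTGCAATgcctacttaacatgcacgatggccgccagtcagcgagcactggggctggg
Mnt promoter window: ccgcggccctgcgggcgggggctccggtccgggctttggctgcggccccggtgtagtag
Usf2 promoter window: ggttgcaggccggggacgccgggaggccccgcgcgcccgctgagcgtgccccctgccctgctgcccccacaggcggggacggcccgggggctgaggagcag
Mxi1 intronic window: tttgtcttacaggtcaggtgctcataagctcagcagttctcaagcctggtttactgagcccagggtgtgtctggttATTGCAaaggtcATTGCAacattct
Mycl intronic window: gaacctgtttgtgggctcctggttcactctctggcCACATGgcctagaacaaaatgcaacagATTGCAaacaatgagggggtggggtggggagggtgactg
Myc downstream window: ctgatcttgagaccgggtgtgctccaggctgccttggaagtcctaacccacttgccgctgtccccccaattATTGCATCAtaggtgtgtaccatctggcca
Usf2 gene-body window: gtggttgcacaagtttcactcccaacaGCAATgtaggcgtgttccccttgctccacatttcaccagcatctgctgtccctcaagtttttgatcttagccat

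Mxi1, which encodes a MAD-family antagonist of MYC, had the strongest promoter peak of the 10. The peak covered chromosome 19, 53313459 to 53313978, and its summit lay in an intron, 746 bp downstream of a start site at 53313066. It rested on 40 reads against a background of 0.792 reads, giving 22.9-fold with a 95% Poisson interval of 16.5 to 30.9, and ranked 223 among the 6100 genes with a promoter peak. The pentamer GCAAT lay 13 bp upstream of this summit, in a window with 75.2% G and C. A weaker promoter peak of Mxi1 (5.02-fold, 2.64 to 8.84, 10 reads) sat 5 bp upstream of another start site, at 53329808. The gene uses 8 annotated protein-coding start sites, and the strong peak belongs to one of the inner ones. When only the outermost start site of each gene was used, Mxi1 had no promoter peak.

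Distal peaks, counted beyond 1 kb and up to 50 kb where the gene had the nearest start site, were also present at Mxi1. An intronic peak 5613 bp downstream of the start site at 53313066 (chromosome 19, 53318549 to 53318845) had 14 reads and a fold of 11.2 (6.49 to 18.4). Its window held TGCAAT on the minus strand of the gene at 28.5 bp and again at 40.5 bp downstream of the summit. A further summit at 1162 bp rested on 6 reads (4.93-fold, 2.25 to 9.90) in repeat-masked sequence and had CACATG at 2 places. A 9.15-fold summit (5.07 to 15.5, 12 reads) also lay in an Mxi1 intron, 29056 bp from its start site, and was assigned to Gm10197, whose start was 12302 bp away.

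Mxd4, a MAD-family repressor linked to differentiation, had a single peak. It was 870 bp wide (chromosome 5, 34187372 to 34188241) and had its summit 264 bp upstream of the start site, with 19 reads over a background of 0.636 reads. The fold was 12.2 (7.60 to 18.7), above that of 84.8% of the other genes with a promoter peak. TGCAAT was centred 2.5 bp from this summit, the closest of the TGCAAT matches to a summit of the 10 genes. This motif was added after these windows had been read. At all promoter summits of the list of peaks, 3.47% had TGCAAT within 50 bp.

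Mnt, which encodes a widely expressed MAX-binding repressor, had peaks on both sides of its start. The main one (chromosome 11, 74830753 to 74831505) had its summit 9 bp upstream of the start site at 9.89-fold (6.23 to 15.0, 20 reads), and a smaller one lay 681 bp upstream at 5.25-fold (2.40 to 10.5, 6 reads). Intronic summits followed 1299 bp downstream of the same start (7.85-fold, 4.25 to 13.5, 11 reads) and, at a repeat-masked base, 1099 bp downstream of an inner start site (7.98-fold, 4.84 to 12.5, 17 reads). The intervals of the 4 Mnt peaks all overlap. Mxd1, the founding MAD gene, stood at the other end of the repressors: its peak, 68 bp upstream of the start, had 8 reads over a background of 1.39 reads and a fold of 3.77 (1.87 to 7.02), with only 2.21% of the other genes with a promoter peak below it.

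**Figure D1:**
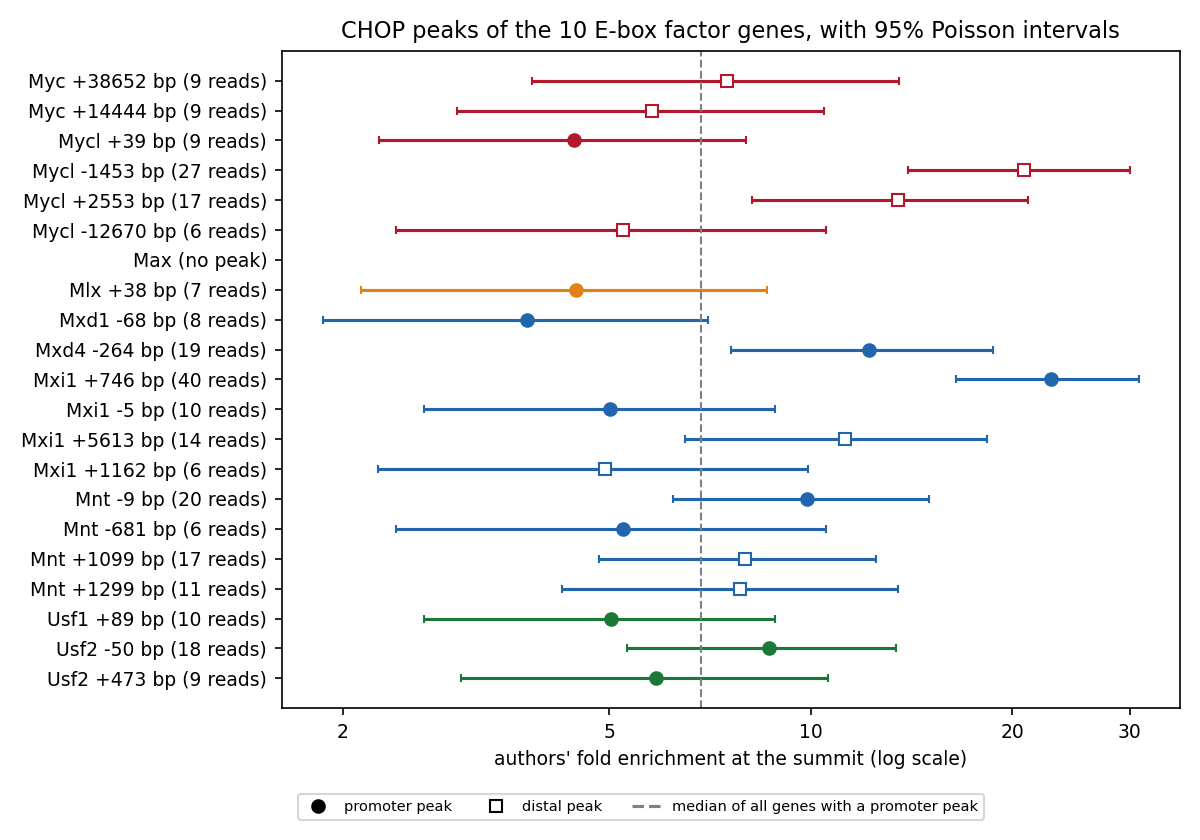
Fold enrichment (log scale) of all 20 CHOP peaks of the 10 genes, with filled circles for promoter peaks, open squares for distal peaks and bars for 95% Poisson intervals of counting error; labels give the summit distance and reads. The Mxi1 peak at +746 bp and the Mycl peak at -1453 bp lie farthest right, and the dashed line is the median of 6.86 over genes with a promoter peak.

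Both USF genes had promoter peaks. At Usf2 the main peak was 1363 bp wide (chromosome 7, 30956152 to 30957514), wider than all but 0.509% of the 14157 peaks. Its summit lay in an intron, 50 bp upstream of an inner start site, with 18 reads and a fold of 8.67 (5.32 to 13.4). A second peak, 179 bp wide and with a repeat-masked summit, lay 473 bp downstream of the same start site. It had 9 reads and 5.87-fold (3.00 to 10.6). At Usf1 the peak (chromosome 1, 171411565 to 171411920) peaked in the 5′ UTR at 89 bp past a start site, with 10 reads and a fold of 5.03 (2.65 to 8.86). The intervals of Usf1 and Usf2 overlap.

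The strongest summit inside any of the 10 genes was not assigned to its host. It lay in an intron of Usf2 (chromosome 7, 30949618 to 30950312) with 58 reads over a background of 0.466 reads and a fold of 40.3 (30.7 to 51.8). It was 6192 bp from the nearest Usf2 start site and 6015 bp from that of Hamp, which encodes the iron hormone hepcidin, so a difference of 177 bp gave it to Hamp. Its window, printed with the others, held GCAAT but not TGCAAT. A 6.93-fold summit (3.55 to 12.5, 9 reads) in the 3′ UTR of Usf2 was also nearer to Hamp, at 1632 bp. Distance alone does not say which gene, if any, either site serves.

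Myc and Mycl differed in where the peaks lay. Myc, the growth regulator itself, had no summit within 1 kb of any of its 6 start sites. Its nearest summits were 14444 bp and 38652 bp downstream, both in intergenic sequence with 9 reads, at 5.79-fold (2.96 to 10.5) and 7.50-fold (3.84 to 13.6). The window of the nearer one was entirely repeat-masked. The farther one (chromosome 15, 62025978 to 62026172) was the one summit of the 10 genes with the full C/EBP-ATF element, TGATGCAAT (printed above as its complement, ATTGCATCA), which contains TGCAAT and which 1.80% of all summits outside promoters had within 50 bp. The element was centred 25 bp downstream of this summit, and with a window of 25 bp the count of summits with it was 0. The next summit, 92414 bp from Myc and so outside the 50 kb limit, had a fold of 4.50 (1.97 to 9.50).

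Mycl, a MYC relative, had a weak promoter peak and stronger ones around it. The promoter peak (chromosome 4, 122995954 to 122996182) had its highest point in the 5′ UTR, 39 bp past a start site, with 9 reads over a background of 1.25 reads and 4.44-fold (2.27 to 8.02). An intronic peak 2553 bp downstream (chromosome 4, 122998420 to 122998853) had 17 reads and 13.5-fold (8.18 to 21.2), with TGCAAT on the minus strand and CACATG in its window. The interval of this peak lies wholly above that of the promoter peak. Another peak, 12670 bp upstream, had 6 reads and 5.25-fold (2.40 to 10.5).

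The highest fold around Mycl came from a 178 bp wide peak 1453 bp upstream of the start, with 27 reads over 0.342 background reads and 20.9-fold (14.0 to 30.02). Its summit was repeat-masked. The part of repeat sequence in the Mycl fold was not tested.

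Max and Mlx, the partner genes, were at the low end. The summit nearest to Max lay 239894 bp from its start sites, with 5 reads, and was closest to Sptb. Of all protein-coding genes, 11.8% were at least as far from a summit, and the median was 27086 bp. At Mlx the only peak (chromosome 11, 101087186 to 101087509) had its summit in a coding exon 38 bp downstream of a start site, with 7 reads over 0.792 background reads and 4.46-fold (2.13 to 8.61). A 31.5-fold summit (22.8 to 42.5, 41 reads) lay 3626 bp upstream of Mlx, at 1026 bp from the start of Coasy, a coenzyme A synthesis gene, to which it was assigned.

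**Figure D2:**
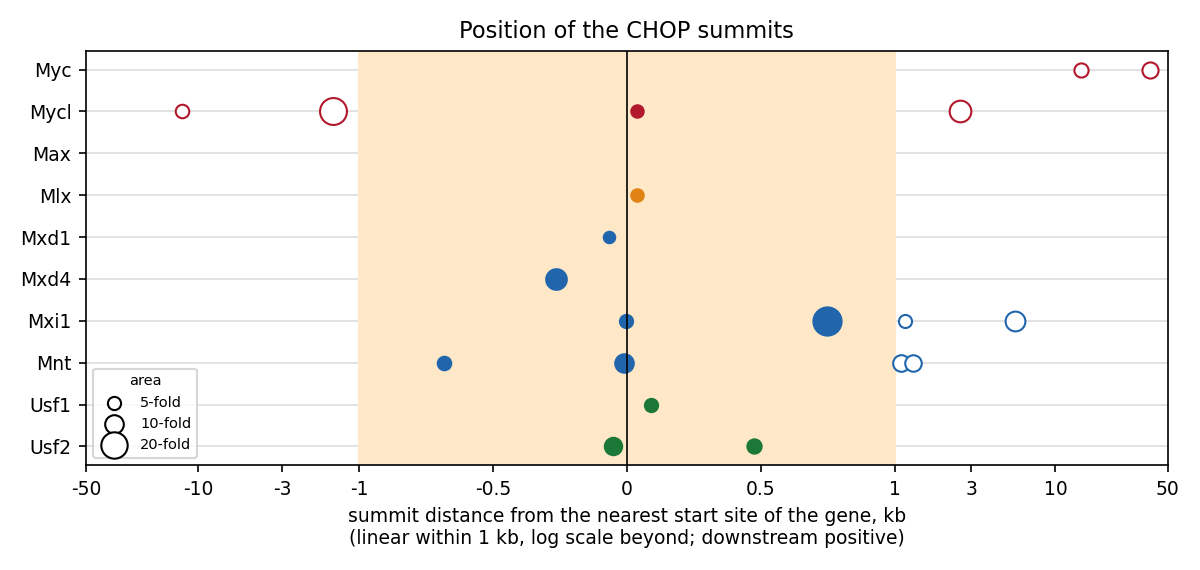
Distance of each summit from the nearest start site of its gene (linear within 1 kb, which is shaded, and log scale beyond), with symbol area proportional to fold, filled for promoter and open for distal peaks. Max has no peak, Myc has only downstream distal peaks, and Mycl, Mxi1 and Mnt have 4 peaks each.

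Several of the 10 genes carried more than one peak. In total 20 peaks were assigned to them, 11 at promoters and 9 distal, and no promoter peak was shared with a start site of another gene (10.5% of all promoter peaks were). Mycl, Mxi1 and Mnt had 4 peaks each, a number reached by 1.28% of protein-coding genes. Mxi1, Mnt and Usf2 had 2 promoter peaks, against 3.60% of protein-coding genes with at least 2. These 3 genes have 8, 2 and 4 start sites, against a median of 2 over all genes. The part of the number of start sites was not tested. Distal peaks were found at 4 of the 10 genes (Myc, Mycl, Mxi1 and Mnt), against 18.0% of all genes. Over the 481 kb for which one of the 10 genes had the nearest start site there were 18.7 distal peaks per Mb, against 4.55 per Mb for all genes. Without the peaks whose summit was repeat-masked, 5 of the 9 distal peaks were left (10.4 per Mb, against 2.77 per Mb for all genes). Mycl, Mxi1 and Mnt then had 3 peaks each, a number reached by 2.35% of protein-coding genes. Of Mxi1, Mnt and Usf2, the first 2 had 2 promoter peaks and Usf2 had 1, against 3.05% of protein-coding genes with at least 2. Of the 9 distal peaks, 5 lay in introns and 4 in intergenic sequence, and 5 were within 3 kb of the start site. Shares over all distal peaks are not given here, so whether these placements are particular to the 10 genes was not tested.

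The folds of the 8 promoters did not stand apart from those of other promoters. Their median was 6.85, against 6.86 over the 6100 genes with a promoter peak (quartiles 5.39 and 9.72). Mxi1, Mxd4 and Mnt were above the upper quartile and Usf1, Mlx, Mycl and Mxd1 below the lower one, leaving Usf2 alone between them. Most of these peaks rest on few reads: 7 of the 11 promoter peaks had 10 or fewer at the summit, and the median over all peaks was 11. In the order Mxi1, Mxd4, Mnt, Usf2, Usf1, Mlx, Mycl, Mxd1, every neighbouring pair had overlapping intervals. Of the 28 pairs of promoters, 7 had separate intervals, 6 of them with Mxi1 as the higher one and the other with Mxd4 above Mxd1. The Mxi1 and Mxd4 intervals overlap.

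**Figure D3:**
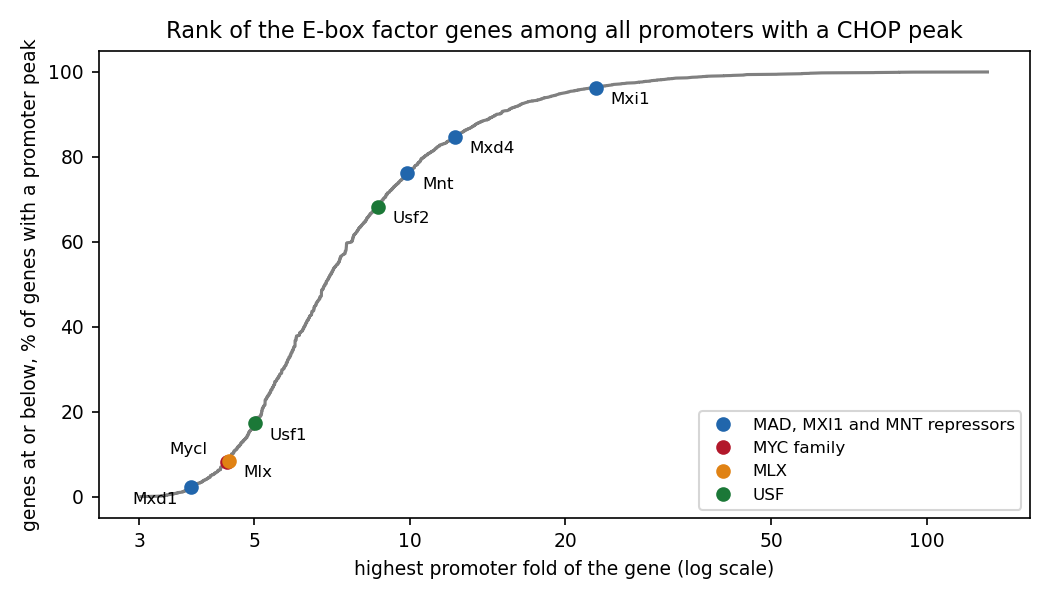
Cumulative share of the 6100 genes with a promoter peak (vertical axis, %) by their highest promoter fold (horizontal axis, log scale), with the 8 E-box factor genes marked and coloured by role. Mxi1, Mxd4 and Mnt lie above the upper quartile, and Usf1, Mlx, Mycl and Mxd1 below the lower one.

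With respect to the 1 kb limit, the outermost summits counted as promoter peaks were those of Mxi1 at 746 bp (22.9-fold) and Mnt at 681 bp (5.25-fold). The first ones beyond it were those of Mnt at 1099 bp (7.98-fold), Mxi1 at 1162 bp (4.93-fold), Mnt at 1299 bp (7.85-fold) and Mycl at 1453 bp (20.9-fold). Summits of the highest promoter peak of each gene were within 100 bp of a start site in 6 of the 8 genes, all but Mxi1 and Mxd4. The same was true of 47.2% of the genes with a promoter peak.

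Sequence matches were searched on both strands within 50 bp of the summits. TGCAAT, read off these windows before it was counted, was present at 4 of the 20 summits: that of Mxd4 and the distal ones of Myc at 38652 bp, Mycl at 2553 bp and Mxi1 at 5613 bp. Within 25 bp TGCAAT was at 2 of the 20 summits, within 100 bp at 4, and in whole peaks at 5. Among all peaks TGCAAT was present within 50 bp at 3.47% of promoter and 13.7% of other summits. GCAAT, contained in it, was also found at the main Mxi1 promoter summit. The palindromic E-box CACGTG was at 0 of the 20 summits, against 5.41% of all promoter and 1.73% of all other summits. This count depends on the window: within 100 bp CACGTG was at 3 of the 20 (the Mlx and Mxd4 promoter summits and the Mnt summit at 1299 bp), against 9.18% of all promoter and 3.94% of all other summits. In whole peaks it was in 4, with the main Mnt promoter peak added, against 15.4% of all promoter and 5.15% of all other peaks. CACATG was within 50 bp of 1 of the 11 promoter summits (the inner one of Usf2) and 2 of the 9 distal ones (of Mycl and Mxi1), against 2.11% of all promoter and 7.41% of all other summits. The looser CANNTG, which includes both, was at 3 of the 11 promoter and 4 of the 9 distal summits, close to its 25.6% of all promoter and 43.1% of all other summits. TGACG, the core of a cAMP response element, was at the Mlx summit, the main Mxi1 and the upstream Mnt promoter summits, and at 13.3% of all promoter summits. GGGCGG was at 4 of the 11 promoter summits, against 45.4% of all promoter summits.

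RefSeq promoter sequences of GRCm38.p6, which span the start and the bases just upstream, were found for 8 of the 10 genes, with Myc and Usf2 missing. These 8 genes had 11 promoters in the RefSeq table. CACGTG was present in 4 of the 11 (of Max, Mlx, Mnt and Mxd4), while 7.15% of all 32851 promoters held it. TGCAAT was present in 1 of the 11 (of Mlx), against 8.40% of all promoters. TGATGNAA was found in no promoter of the 8 genes and in 3.97% of all.

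Relatives, cofactors and targets of these factors were counted in 6 lists of 100 genes in all. Of these 100 genes, 56 had a promoter peak, against 27.9% of all protein-coding genes. Their median fold was 7.79, against 6.86 over all genes with a promoter peak. The median CpG ratio ran from 0.499 to 0.793 in the lists, against 0.504 over all genes, and its part in the counts was not tested. No difference between lists was tested. Among other MAX network genes, 2 of 5 had a promoter peak: Mycn at 5.83-fold (2.88 to 10.8) and Mlxipl, which encodes the glucose sensor ChREBP, at 4.79-fold (2.19 to 9.62). Mga had a distal peak of 13.7-fold only, and Mlxip, which encodes MondoA, and Mxd3 had none. Of other leucine zipper E-box factors 5 of 8 had one, all of 6.70-fold or less, including Mitf, Usf3 and the lysosomal regulator Tfeb, as well as the lipid regulators Srebf1 at 5.03-fold and Srebf2 at 4.42-fold. Of the remaining helix-loop-helix and PAS factors 13 of 18 had one, led by the Notch effector Hes1 (19.0-fold, 13.8 to 25.4) and the clock repressor Bhlhe40 (16.9-fold, 11.7 to 23.6), with Clock, Hey1 and Tcf4 after them. The fold of the MYC antagonist Mxi1 was above all 56, but its interval (16.5 to 30.9) overlaps those of Hes1 and Bhlhe40, among others. With summits within 500 bp only, the fold of Mxi1 was 5.02.

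Cofactors and turnover factors of MYC and MAX had promoter peaks at 14 of 26 genes, beside the 27.9% of all protein-coding genes that had one. Ppp2r5a, a PP2A subunit, reached 13.1-fold (8.85 to 18.7) and the deubiquitinase Usp28 12.0-fold (7.55 to 18.2), followed by Mycbp2 and Fbxo32. Of classical MYC targets 15 of 25 had one, with the pyrimidine synthesis gene Cad at 17.0-fold (12.8 to 22.1), the nucleolar gene Ncl at 14.7-fold (9.85 to 21.1) and the cap-binding factor gene Eif4e at 13.0-fold (8.90 to 18.4), then the polyamine gene Srm and Ldha. Of the USF and glucose-response targets 7 of 18 had one, led by Arrdc4, a relative of Txnip, at 17.6-fold (12.1 to 24.8), with Hmox1 at 11.6-fold, the lipogenic gene Acaca at 9.24-fold, the fructose kinase gene Khk at 7.87-fold and then Gpd1. Pklr and Txnip had neither promoter nor distal peak.

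**Figure D4:**
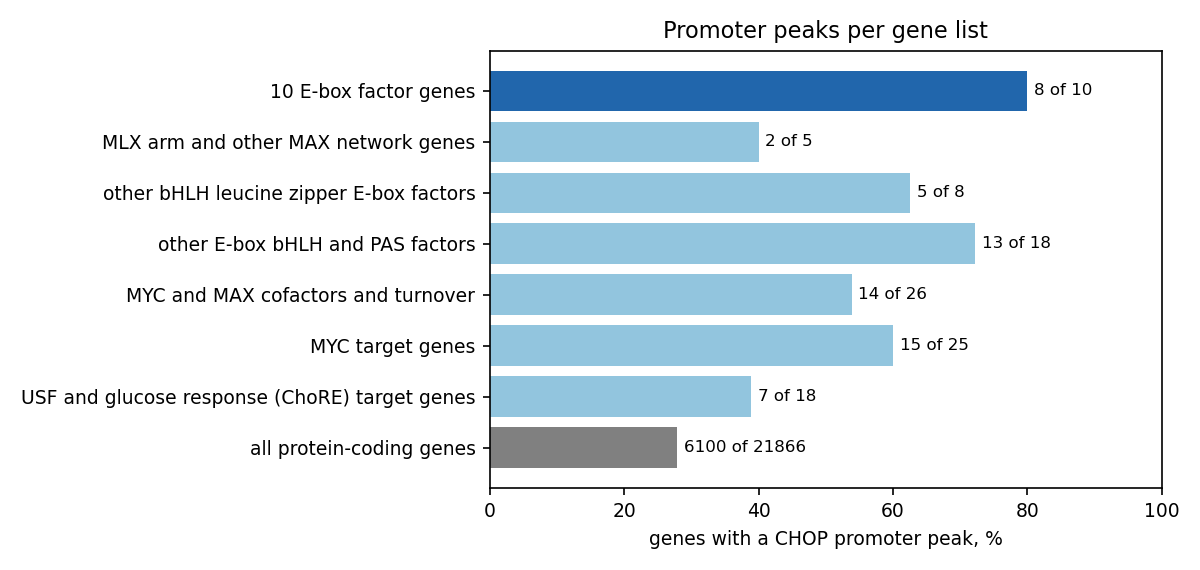
Share of genes with a CHOP promoter peak (horizontal axis, %) in the 10 E-box factor genes, in 6 lists of related genes and in all protein-coding genes, with counts beside the bars. All 6 lists and the 10 genes lie above the 27.9% of all genes, and the 10 genes at 80.0%.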

How the data were processed

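CHOP chromatin immunoprecipitation from 1 pool of 3 tunicamycin-treated mouse livers was analysed from the authors' peak list. Per the labels' protocols, Bowtie (version not stated) placed single-end reads on mm10 with at most 2 mismatches, reads stacked more than 2 deep were dropped, and SAMtools 1.9 and Sambamba 0.7.1 filtered the alignments. MACS2 2.1.2 called the peaks at default settings. The authors deposited for each of 14157 peaks a fold, −log10 p, −log10 q, a score and the summit offset. The fold is the ratio of summit pileup plus 1 to local background plus 1, so it is lower than the plain ratio. The deposited score is 10 times −log10 q within 1 and was not used.

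From fold and −log10 p the whole-number summit reads and the background were solved for all peaks (largest residual 3.13e-05 in −log10 p), after the step was tested on simulated data. Summit reads ran from 4 to 329. Intervals are exact Poisson at 95% on the summit reads with the background held fixed. They cover counting error only, since 1 library from 1 pool gives no spread between mice or libraries. Reads also carry no molecular identifiers, so duplicates may remain in the counts. The sources used here give no library depth. Start sites are those of protein-coding transcripts in GENCODE M21. A peak counts as a promoter peak of every gene within 1 kb, and as a distal peak of the gene with the nearest start within 50 kb. With 1 library there is no replicate and no test. The 10 genes, the lists and the motifs were chosen with earlier results of these data known, and TGCAAT and GCAAT were added after the summit windows had been read. The text names all 10 genes, from each list up to 5 genes that lead by promoter fold, and others, chosen afterwards, among them Hamp, Coasy, Sptb, Gm10197, Mga, Mlxip, Mxd3, Pklr and Txnip. Some values and summit windows are not reported here. Alternatives were stricter peaks, other start-site sets and distances, masked summits left out, and other motif windows. Scripts ran under Python 3.11.15 (scipy 1.17.1, numpy 2.4.6, pysam 0.24.0, pandas 2.3.3, matplotlib 3.10.9).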

Additional observations from a re-analysis of the deposited data

How the results depend on the processing

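The count of genes with a promoter peak depends on the peak threshold. With −log10 q of at least 5 it was 4 of 10 (Mxd4, Mxi1, Mnt and Usf2) instead of 8, against 21.0% of all genes, and with a fold of at least 5 it was 5 of 10, against 23.5%. It was 7 with the outermost start site and 8 under the other 6 alternatives, for distance, assignment, transcripts and masking. Of the 100 related genes, 49 had a promoter peak with the outermost start site. Under the other 6 alternatives 51 (within 500 bp) to 62 (within 3 kb) had one, against 56 in the main count. The share of all genes under these alternatives is not given, so the contrast with it was not tested. Distal peaks numbered 5 instead of 9 without peaks that have a repeat-masked summit. The fold of Mxi1 was 5.02 with summits within 500 bp, and that of Mycl was 20.9 within 3 kb and 13.5 with transcripts of every biotype. Summits with a match, summed over 14 motifs, numbered 16 within 25 bp, 51 within 100 bp and 77 in whole peaks, against 25 within 50 bp, as the searched length changes. A summit counts once for each motif it holds, and motifs contained in others, such as CACATG in CANNTG, count under both. No paired analysis was possible because there is 1 immunoprecipitated library and the input enters only through the peak calling. Depth limits all folds of 10 or fewer summit reads, and absence of a peak at Max or at the Myc promoter means that none was called at this depth.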
